A study of Mus musculus with 6 samples.

Results

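Beta-catenin, the T cell factors that carry it to DNA and the complex that destroys it were examined in offspring liver by the signal of 10 listed genes on the arrays. A gene entered when a probe set was annotated to its symbol alone, and where several such probe sets exist the brightest would represent the gene. This gave 9 of the 10 genes, each with 1 probe set, out of 22180 genes with such a probe set in all. They are Ctnnb1, Tcf7l1, Tcf7l2, Lef1, Apc, Apc2, Axin1, Gsk3b and Frat1. The only probe set that carries the symbol Gsk3a also carries 9130221H12Rik, so Gsk3a was not analysed here and the kinase pair Gsk3a and Gsk3b could not be contrasted.

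Liver RNA came from fasted male C57BL mice at 32 weeks of age. In the CR-CD group (n = 3 arrays) the dams ate a chromium-restricted diet through pregnancy and lactation and their pups ate the control diet from weaning. In the CD-CD group (n = 3 arrays) dams and pups ate the control diet throughout. The labels do not say whether arrays of 1 group come from separate animals or litters, so every SD and p measures the spread between arrays only. Whole liver was used, and fewer cells of a type and less RNA per cell cannot be told apart. The deposited values are normalized log2 signals with array medians between 5.48 and 5.54, and 324 of the 22180 genes (1.46%) hold values written with more digits than a single-precision number needs, here called the longer number format. The hepatocyte markers Alb (13.8 in CR-CD, 13.7 in CD-CD) and Ttr (13.4 in both) were among the 5 measured hepatocyte markers, none of which passed the test. All 6 markers of Kupffer cells and macrophages had higher means in CR-CD, and their mean log2 signal per array ran from 8.0 to 8.86 in CR-CD and from 7.36 to 7.95 in CD-CD. None of the 6 passed the adjusted p, and 3 had an unadjusted p under 0.05 from limma, as did 6.38% of all genes. The part of these cells in the results below was not tested. In the endothelial, stellate, bile duct and lymphocyte marker lists no gene passed, and the ranges of the mean signal per array overlapped between the groups in all 4.

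Beta-catenin, the product of Ctnnb1, joins cadherins to the cytoskeleton and is also the messenger of canonical Wnt signaling. Without a Wnt signal, Axin and Apc hold it for phosphorylation by casein kinase and GSK-3, after which it is ubiquitinated and degraded. With a Wnt signal, the destruction complex is blocked, beta-catenin accumulates and binds TCF/LEF factors on DNA. In adult liver this pathway is best known for setting the gene program of hepatocytes around the central vein.

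Among these genes, Ctnnb1, Tcf7l1, Tcf7l2 and Frat1 rose in CR-CD and Apc2 fell, while Lef1, Apc, Axin1 and Gsk3b did not pass the test. Thus 4 of 9 rose and 1 fell at an adjusted p under 0.05 from limma, against 0.784% of all genes that rose and 0.699% that fell (1.48% either way). The 5 genes also make up all those with at least a 1.5-fold difference at an unadjusted p of at most 0.05, the threshold of the study's methods, which 1.67% of all genes reached. The genes were chosen with earlier results known, and each gene that passed is also on the study's own list of Wnt pathway genes chosen on these arrays, so the count is not independent evidence. By real-time PCR the study also reported higher Ctnnb1 and Tcf7l2 in CR-CD, and those measurements are not used here. In all 5 genes that passed, the 3 values of 1 group were in the longer number format, and in the 4 others no value was.

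**Figure D1:**
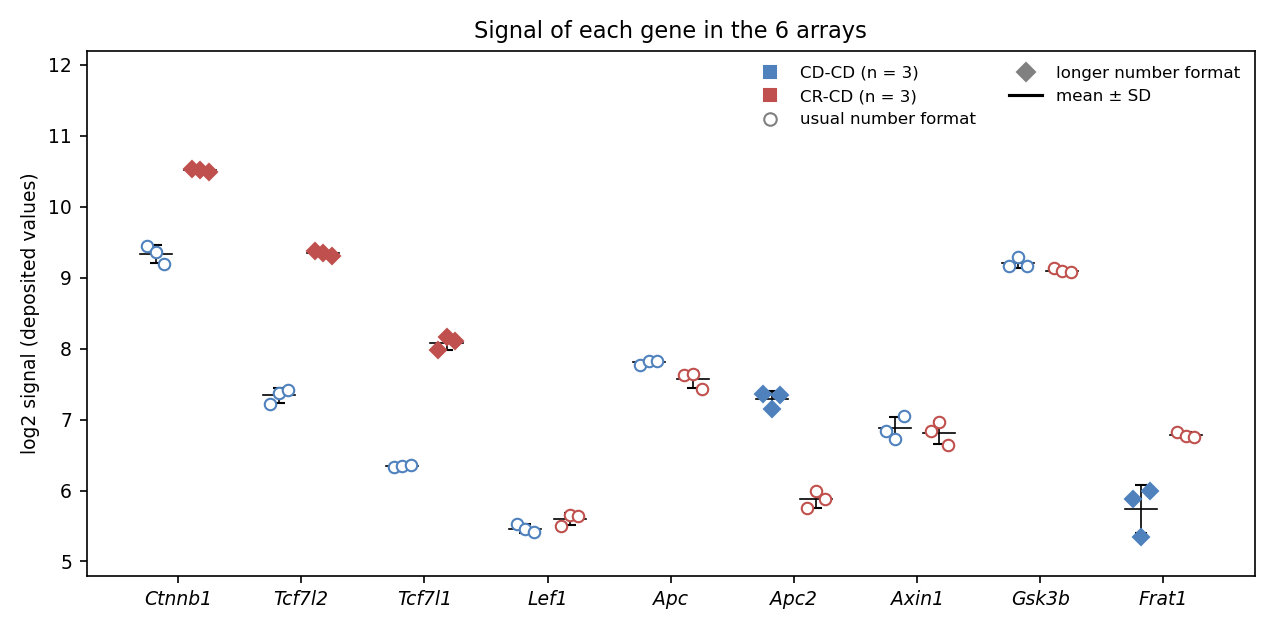
The log2 signal of each gene (vertical axis) in the 3 CD-CD arrays (blue) and the 3 CR-CD arrays (red), with filled diamonds for values in the longer number format, open circles for the usual format, and black lines for the mean ± SD. Filled diamonds occur in 1 group each of Ctnnb1, Tcf7l2, Tcf7l1, Apc2 and Frat1, and the groups overlap only in Lef1 and Axin1.

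The promoter windows of Ctnnb1, Tcf7l1 and Tcf7l2 are shown because these 3 genes rose most. That of Gsk3b is shown because it is the only one searched that holds CTTTGA, the form of the TCF core used here. Each is the RefSeq window (build GRCm38.p6) from 250 bases before to 50 bases after the most upstream start of the gene, 5′ to 3′ on the strand of the gene. Ctnnb1 lies at chr9:120933150-120933449 (plus strand), Tcf7l1 at chr6:72788996-72789295 (minus strand), Tcf7l2 at chr19:55741560-55741859 (plus strand) and Gsk3b at chr16:38088751-38089050 (plus strand). Capitals mark matches on either strand to the TCF core CTTTGA, the GC box GGGCGG, the CCAAT box CCAAT or the TATA box TATAAA.
Ctnnb1: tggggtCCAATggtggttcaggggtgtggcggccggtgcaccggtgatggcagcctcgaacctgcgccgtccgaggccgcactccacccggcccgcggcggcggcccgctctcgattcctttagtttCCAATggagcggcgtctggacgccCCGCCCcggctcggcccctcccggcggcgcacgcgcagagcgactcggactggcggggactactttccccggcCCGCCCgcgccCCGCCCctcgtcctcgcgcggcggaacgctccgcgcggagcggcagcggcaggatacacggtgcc
Tcf7l1: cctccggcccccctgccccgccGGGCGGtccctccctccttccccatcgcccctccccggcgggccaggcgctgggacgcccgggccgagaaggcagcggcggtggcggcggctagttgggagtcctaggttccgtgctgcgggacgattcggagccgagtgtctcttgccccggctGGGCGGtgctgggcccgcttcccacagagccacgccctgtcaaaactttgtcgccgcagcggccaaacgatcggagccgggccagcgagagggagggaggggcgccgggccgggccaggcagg
Tcf7l2: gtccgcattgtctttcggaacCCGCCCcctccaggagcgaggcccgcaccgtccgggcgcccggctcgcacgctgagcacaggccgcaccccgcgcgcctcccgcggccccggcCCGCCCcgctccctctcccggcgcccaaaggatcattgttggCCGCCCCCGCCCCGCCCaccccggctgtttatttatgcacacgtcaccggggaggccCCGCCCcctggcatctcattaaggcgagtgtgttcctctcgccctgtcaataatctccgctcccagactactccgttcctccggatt
Gsk3b: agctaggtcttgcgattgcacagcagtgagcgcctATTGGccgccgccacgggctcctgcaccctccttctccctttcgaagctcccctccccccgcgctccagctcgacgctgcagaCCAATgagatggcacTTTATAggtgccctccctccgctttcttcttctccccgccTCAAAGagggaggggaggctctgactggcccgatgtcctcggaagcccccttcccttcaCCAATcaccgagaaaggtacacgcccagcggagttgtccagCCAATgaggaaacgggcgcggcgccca
In the windows of 7 of the genes (these 4, Apc2, Frat1 and Lef1), the TCF core CTTTGA was found in 1, Gsk3b, against 16.2% of the most upstream windows of all 27025 genes in the table. Other forms of the TCF motif were not searched. A GC box was found in Ctnnb1 (3 matches), Tcf7l1 (2), Tcf7l2 (6, of which 3 adjoin or overlap in 1 run), Apc2 (4) and Lef1 (1), and in 35.9% of all such windows. The windows of Ctnnb1 and Tcf7l1 were both 75.3% G and C and that of Tcf7l2 70.0%, with a median of 56.3% over the genes on the array that have a window. Those of Lef1 (67.3%), Gsk3b (63%), Frat1 (61.3%) and Apc2 (58.3%) were above this median too. CCAAT boxes were found in Ctnnb1 (2), Frat1 (2) and Gsk3b (4), against 38.0% of all windows, and a TATA box in Gsk3b alone of the 7, against 14.2%. These are matches of letters and say nothing about binding.

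Ctnnb1 had log2 signals of 10.53, 10.52 and 10.49 in CR-CD and of 9.44, 9.36 and 9.20 in CD-CD. All 3 CR-CD arrays lay at least 1.04 above the highest CD-CD array. The means were 10.51 ± 0.02 and 9.33 ± 0.12 (SD, n = 3 per group), a log2 difference of 1.18 (standard error 0.08, 2.27-fold, adjusted p = 0.000292 from limma). Its values in CR-CD were written in the longer format, with 7 decimals against 6 in CD-CD, and their SD was the smaller.

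The TCF/LEF factors measured here did not change alike. Tcf7, another factor of this family, was not measured, as no probe set was annotated to its symbol alone. Tcf7l2, the factor of this family best known in adult liver and in type 2 diabetes genetics, had log2 signals of 9.37, 9.35 and 9.31 in CR-CD and of 7.22, 7.38 and 7.42 in CD-CD. The groups were 1.88 apart at their nearest arrays. Its log2 difference of 2.0 (standard error 0.08, 4.0-fold, adjusted p = 2.69e-05 from limma) was the largest of the 9 genes in these data.

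Tcf7l1, a factor known mainly as a repressor of Wnt targets in stem cells and embryos, had log2 signals of 7.98, 8.17 and 8.11 in CR-CD. Its CD-CD signals were 6.34, 6.34 and 6.36, the narrowest spread of any gene here in either group (SD 0.01, n = 3). The log2 difference was 1.74 (standard error 0.07, 3.34-fold, adjusted p = 3.15e-05 from limma). As with Tcf7l2, the longer format was found in CR-CD alone.

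Lef1, a factor best known in lymphocytes and in hair follicle and other developing tissues, had log2 signals of 5.51, 5.66 and 5.65 in CR-CD and of 5.53, 5.45 and 5.41 in CD-CD. These values lie close to the array medians, and the groups overlap. The log2 difference of 0.14 (95% interval -0.04 to 0.31, adjusted p = 0.852 from limma) did not pass the test.

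Signals of different probe sets are not amounts of RNA on a common scale, so the factors were compared by the difference of their log2 signals within each array, which shows unequal change between groups. Tcf7l2 minus Tcf7l1 was 1.39, 1.18 and 1.20 in CR-CD and 0.89, 1.04 and 1.06 in CD-CD. The groups did not overlap, and the difference widened by 0.26 (standard error 0.09) in CR-CD. Against Lef1 the widening was 1.86 (standard error 0.12) for Tcf7l2 and 1.60 (standard error 0.04) for Tcf7l1. In the destruction complex, Apc2 minus Apc went from -0.52 ± 0.13 in CD-CD to -1.69 ± 0.17 in CR-CD (SD, n = 3 per group), a shift of -1.17 (standard error 0.12). The CR-CD and CD-CD arrays were apart in all 4 pairs, each with p = 0.1 in an exact permutation test (two-sided), the smallest that 3 arrays against 3 allow, and with an adjusted p of 0.1 over the 4 pairs. In each pair, at least 1 gene holds values in the longer number format. The shifts against Lef1 and Apc mostly repeat the changes of Tcf7l2, Tcf7l1 and Apc2 themselves. The pairs of TCF/LEF factors also share genes, so the 4 pairs are not separate results.

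**Figure D2:**
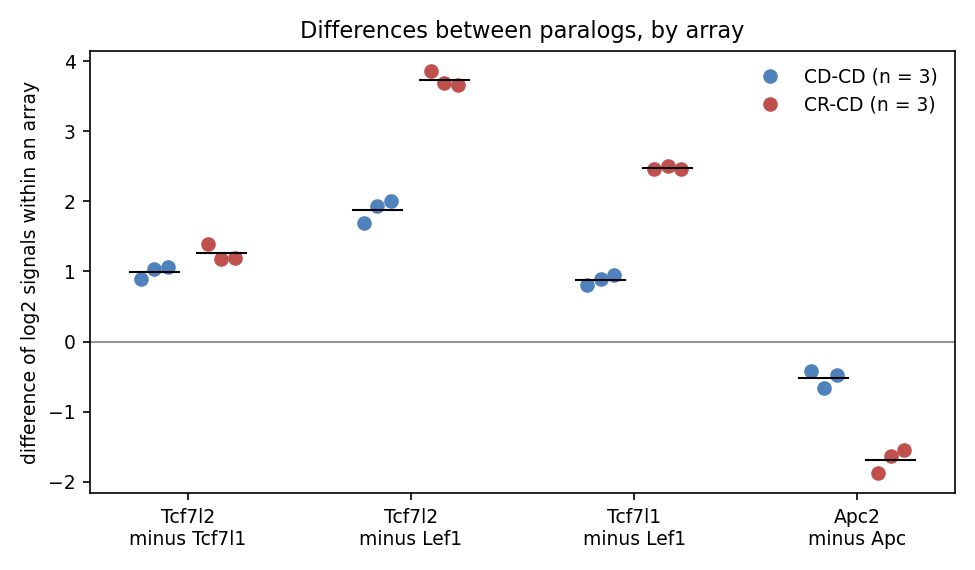
The difference between the log2 signals of 2 related genes within the same array (vertical axis) for 4 pairs, with 1 point per array (blue CD-CD, red CR-CD) and a black line at the group mean. The groups are 1.86 apart on average for Tcf7l2 minus Lef1 and 0.26 apart for Tcf7l2 minus Tcf7l1.

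In the destruction complex, the paralogs Apc and Apc2 differed in size of change. Apc, the tumor suppressor that presents beta-catenin to the complex, had log2 signals of 7.63, 7.64 and 7.43 in CR-CD and of 7.77, 7.82 and 7.83 in CD-CD. All 3 CR-CD arrays were below all 3 CD-CD arrays, by 0.14 at the nearest. The log2 difference of -0.24 (95% interval -0.43 to -0.05) had an unadjusted p of 0.0202 and an adjusted p of 0.641 from limma and did not pass.

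Apc2, an Apc homolog best known in the nervous system, had log2 signals of 5.76, 6.0 and 5.88 in CR-CD and of 7.36, 7.15 and 7.35 in CD-CD. The highest CR-CD array was 1.15 below the lowest CD-CD array. The log2 difference was -1.41 (standard error 0.09, 2.65-fold lower, adjusted p = 0.000256 from limma). Here it was the CD-CD values that were in the longer format, with 9 decimals against 7 in CR-CD, and in Apc no value was.

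Axin1, the scaffold on which the complex assembles, had log2 signals of 6.84, 6.96 and 6.64 in CR-CD and of 6.84, 6.73 and 7.06 in CD-CD. These groups overlap almost fully. The log2 difference was -0.06 (95% interval -0.34 to 0.22, adjusted p = 0.995 from limma).

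Gsk3b, the kinase that marks beta-catenin for degradation and also restrains glycogen synthase, had log2 signals of 9.13, 9.09 and 9.08 in CR-CD and of 9.17, 9.29 and 9.17 in CD-CD. The groups did not overlap but were only 0.04 apart. The log2 difference of -0.11 (95% interval -0.27 to 0.05, adjusted p = 0.889 from limma) did not pass the test. Intervals for Axin1 and Gsk3b leave out a change as large as that of any of the 5 genes that passed, at the spread of these arrays.

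Frat1, a protein that binds GSK-3 and keeps it from Axin, had log2 signals of 6.83, 6.77 and 6.75 in CR-CD and of 5.88, 5.35 and 5.99 in CD-CD. The CD-CD arrays were the most spread of any gene here (SD 0.34 against 0.04 in CR-CD, n = 3 per group), with replicate 2 the lowest. The log2 difference was 1.04 (standard error 0.16, 2.06-fold, adjusted p = 0.0249 from limma). It did not pass with any 1 CR-CD array left out (limma's adjusted p then lay between 0.117 and 0.134), and the methods' t-test gave an unadjusted p of 0.00631 and, adjusted here over all genes, 0.312. Among the 5 genes with values in the longer number format, Frat1 was the only one in which these values belonged to the group with the lower signal.

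**Figure D3:**
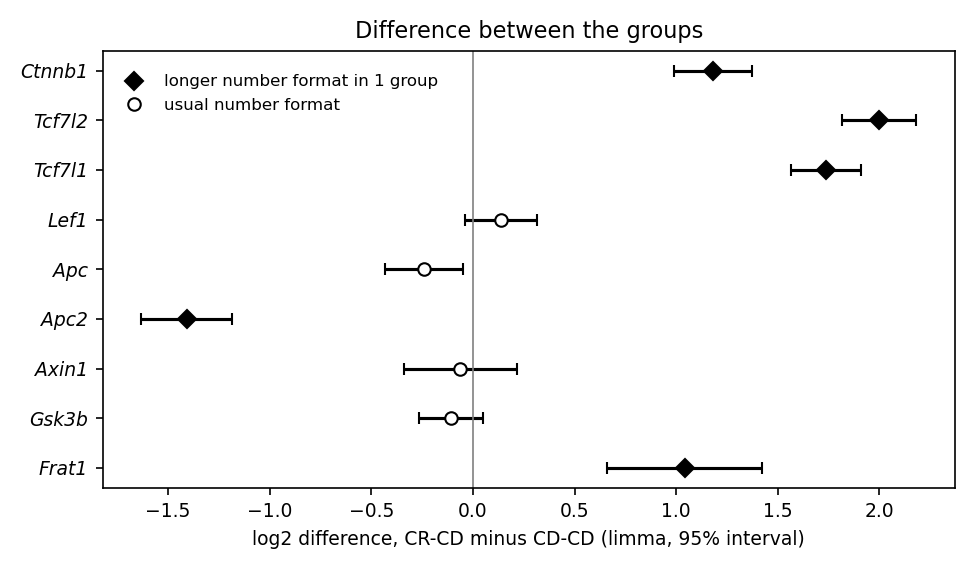
The log2 difference between the groups, CR-CD minus CD-CD (horizontal axis), for each gene with its 95% interval from limma. Filled diamonds are genes with the longer number format in 1 group and open circles are genes without it. The diamonds lie between -1.41 and 2.0 with none nearer to 0 than 1.04, and the open circles lie between -0.24 and 0.14.

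The groups did not overlap in 7 of the 9 genes, with CR-CD above CD-CD in 4 and below it in 3, against 11.4% of all genes (5.63% higher and 5.77% lower). Without the genes in the longer number format this was 10.1% of 21856 genes, and it held for 2 of the 4 genes left here, Apc and Gsk3b, both lower in CR-CD. Over all genes, 165 held the longer format in the 3 CR-CD arrays only, and 150 of them were higher in CR-CD. It was found in the 3 CD-CD arrays only in 122 genes, and 115 of them were higher in CD-CD. The group in the longer format also had the smaller spread, with a median SD of 0.04 against 0.09 in the first set and of 0.05 against 0.09 in the second. Ctnnb1, Tcf7l2 and, by little, Apc2 had both features, whereas in Tcf7l1 and Frat1 the group in the longer format had the larger SD. All 287 genes of these sets passed the adjusted p, as did 14 of the 21856 genes with no value in the longer format. In a separate fit of 21878 genes without such probe sets, none passed (0.0%). The sources used here do not describe the difference in format, and its part in the results was not tested.

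Over the 6 arrays, the genes most like Ctnnb1 were 1700120K04Rik, Hand2 and Slc35f5, each with a Pearson r of 0.999. This describes mainly the step between the groups, which 194 genes follow with r over 0.95. All 3 hold CR-CD values in the longer format.

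Other genes of the pathway inside the cell were counted from a list of 60, of which 57 were measured. Here 2 rose and 3 fell (1.48% of all genes passed), 12 had an unadjusted p under 0.05 (6.38% of all genes did), and the median log2 difference was -0.06, against 0.00 over all genes. The longer format occurred in these 5 genes and in the brightest probe set of no other gene of the list. The list was also chosen with earlier results known. Ppp2r1a, Crebbp, Skp1 (as Skp1a), Ppp2r5b and Tcf7, which was not measured, are on the study's own Wnt list as well.

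Among scaffold, kinase and phosphatase genes, 1 of 12 passed. Ppp2r1a, the scaffold subunit of the phosphatase PP2A, rose, with 9.83 ± 0.04 in CR-CD against 9.05 ± 0.08 in CD-CD (SD, n = 3 per group, log2 difference 0.78, adjusted p = 0.00132 from limma). Axin2, the inducible relative of Axin1 and a target of the pathway, had a log2 difference of -0.36 (unadjusted p = 0.0111, adjusted p = 0.483 from limma) without overlap of the groups, and of -0.06 in a second, slightly dimmer probe set.

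Of 12 nuclear partners of beta-catenin, 2 fell. Crebbp, a histone acetyltransferase that beta-catenin recruits, had log2 signals of 7.90, 8.03 and 8.12 in CR-CD and of 9.72, 9.58 and 9.56 in CD-CD (log2 difference -1.60, adjusted p = 8.52e-05 from limma). Its lower CR-CD values, not the higher ones, were in the longer format. Bcl9l, an adaptor between beta-catenin and Pygo proteins, had log2 signals of 6.81, 6.90 and 6.87 in CR-CD and of 7.86, 8.06 and 8.07 in CD-CD (log2 difference -1.14, adjusted p = 0.000339). Ep300, the paralog of Crebbp, held no such values and had a log2 difference of -0.27 (unadjusted p = 0.00574, adjusted p = 0.301).

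Of 16 repressors, Tle3, a Groucho corepressor that occupies TCF factors when beta-catenin is absent, fell, with 7.52 ± 0.18 in CR-CD against 8.45 ± 0.12 in CD-CD (SD, n = 3 per group, log2 difference -0.94, adjusted p = 0.0058 from limma). The methods' t-test gave Tle3 an unadjusted p of 0.00178 and, adjusted here over all genes, 0.121. The histone deacetylase Hdac1 had a log2 difference of 0.31 (unadjusted p = 0.035, adjusted p = 0.738). Of 5 catenin and cadherin partners, Cdh1, the E-cadherin that holds beta-catenin at cell contacts, was the only one that passed, with 7.74 ± 0.05 in CR-CD and 6.47 ± 0.08 in CD-CD (SD, n = 3 per group, log2 difference 1.28, adjusted p = 0.000107) and the longer format in CR-CD. A second, dimmer probe set of Cdh1 in the usual format had a log2 difference of -0.0098, and the mean of both probe sets one of 0.63.

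None of the 5 ubiquitin ligase genes or of the 7 genes upstream of GSK-3 passed in their brightest probe set. Frat2, the paralog of Frat1, had a log2 difference of -0.34 with overlapping groups (unadjusted p = 0.0819, adjusted p = 0.824 from limma). Csnk1g3, a casein kinase that acts on Wnt receptors, had a log2 difference of -0.27 (adjusted p = 0.497 from limma). Skp1, a core subunit of the ligase that takes up phosphorylated beta-catenin, had 10.42 ± 0.05 in CR-CD and 10.28 ± 0.06 in CD-CD (SD, n = 3 per group). Its dimmer probe set had 5.72 ± 0.41 and 7.81 ± 0.07, a log2 difference of -2.09 (adjusted p = 0.00171 when limma was run on every probe set), with the longer format in all 3 CD-CD arrays and 1 CR-CD array. Fbxw11, a substrate receptor of that ligase, had a log2 difference of 0.13 (adjusted p = 0.889).

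Ppp2r5b, a regulatory subunit of PP2A, also had probe sets that differed, here in size of change and not in direction. The brighter had a log2 difference of -0.16 (adjusted p = 0.765 in the same limma fit) and the dimmer, written in the longer format in CR-CD, of -0.74 (adjusted p = 0.0159). In the lists of pathway and target genes, 13 genes had more than 1 probe set and 14 dimmer probe sets in all. Only the dimmer probe sets of Skp1 and Ppp2r5b passed, and they were the only ones of the 14 with values in the longer format.

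Targets of beta-catenin and TCF were counted from a list of 26, of which 25 were measured, Lef1 and Axin2 among them. None passed the adjusted p from limma and 5 had an unadjusted p under 0.05, against 6.38% of all genes. The log2 differences ran from -0.61 to 0.40 with a median of -0.02, 12 above 0 and 13 below, and no target held values in the longer format. Glul, the glutamine synthetase of pericentral hepatocytes, was at 11.66 in both groups, with a log2 difference of 0.00 (standard error 0.08, adjusted p = 1.0). Cyp2e1, a pericentral cytochrome P450, had a log2 difference of -0.04 and Lgr5, a receptor for R-spondins, one of 0.17. The smallest unadjusted p on the higher side were those of Rhbg, an ammonium transporter (log2 difference 0.40, adjusted p = 0.618), and Cd44 (0.23, adjusted p = 0.683). On the lower side they were those of Nr1i3, the nuclear receptor CAR (-0.36, adjusted p = 0.376), Axin2 and Tbx3, a T-box factor (-0.61, adjusted p = 0.721, groups overlapping). A p that misses the threshold does not show that these genes were equal in both groups.

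**Figure D4:**
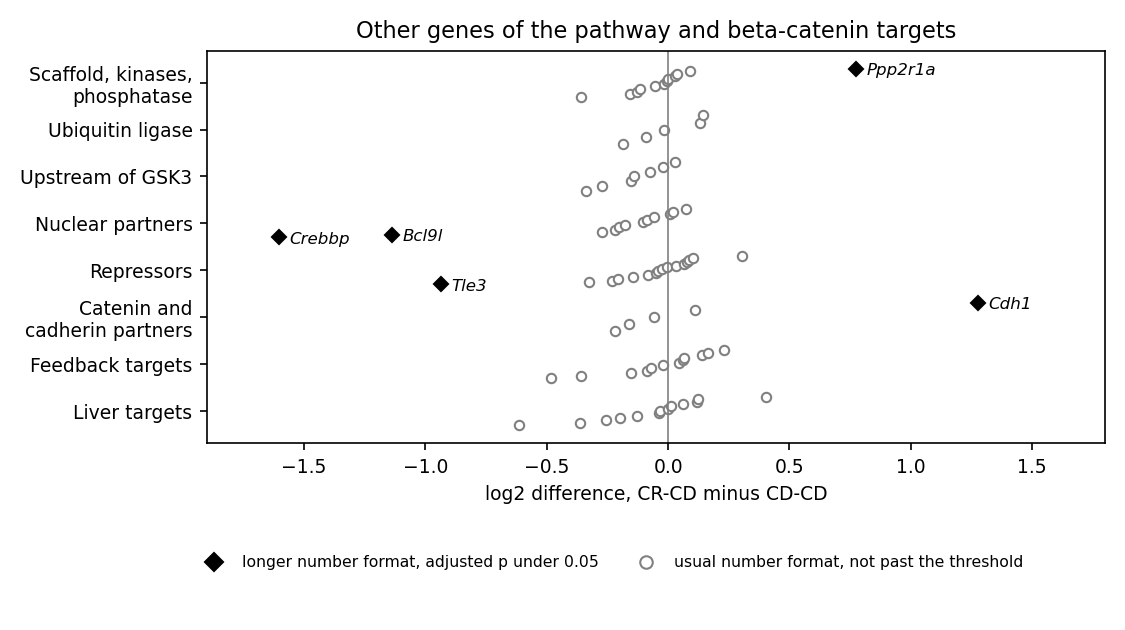
The log2 difference between the groups, CR-CD minus CD-CD (horizontal axis), of each measured gene of the pathway list and of the target list by role (rows), spread within a row only for visibility. Filled black diamonds hold values in the longer number format and passed the adjusted p. Open circles hold none, did not pass and lie between -0.61 and 0.40.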

How the data were processed

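The authors hybridized liver RNA to Affymetrix GeneChip Mouse Gene 2.0 ST arrays and normalized them in GeneSpring v 12.5. For 33793 probe sets in 6 arrays they deposited log2 signals, which range from 3.63 to 13.9 with 0 missing. The summarization of probes, a filter and a genome build are not given in the sources used here. Symbols came from the platform annotation, in which 23521 probe sets had 1 symbol, 1820 several and 8452 none. The brightest probe set (mean of 6 arrays) represented each of 22180 genes. Groups, taken from the sample titles, were set against each other in R 4.3.3 by limma 3.58.1, using lmFit and an untrended eBayes (residual degrees of freedom 4, prior 2.98). P-values were adjusted by Benjamini-Hochberg across the genes, the threshold was 0.05, and 95% intervals came from the same fit. The test was checked on simulated data. Paralogs were compared with exact permutation tests in Python 3.11.15 with scipy 1.17.1. A value was called single precision where its decimal gives back the shortest form of 1 such number.

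The genes and lists were chosen with earlier results of these data known. Named are the 9 genes, every gene of both lists past the adjusted p and the 3 smallest p each way, the 3 genes most like Ctnnb1 and cell type markers. Glul, Cyp2e1, Lgr5, Frat2 and genes with diverging probe sets were named after their values were seen. Arrays that share a replicate number deviated together from their groups, with correlations over the genes of 0.407, 0.208 and 0.201, above the limit of 0.1. Of the 6 pairs with unlike numbers, CR-CD 3 with CD-CD 2 (0.261) and CR-CD 2 with CD-CD 3 (0.107) were above it too and the others below 0. As each like-numbered pair passed, the replicate number was tried as a block. Also tried were quantile normalization, median centring, the methods' t-test, robust variances with a trend on intensity, keeping genes above the 40th percentile of signal, averaging the probe sets of a gene, all probe sets, leaving out each array, and leaving out probe sets in the longer number format. Precision is limited by the number of arrays. Promoter windows are from RefSeq, matched by symbol.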

Additional observations from a re-analysis of the deposited data

How the results depend on the processing

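The direction and the call of Ctnnb1, Tcf7l1, Tcf7l2 and Apc2 were the same in all 14 alternatives that kept their probe sets. With replicate number as a block, the adjusted p of the genes that passed ran from 0.000406 for Tcf7l1 and Tcf7l2 to 0.0199 for Frat1, all 5 genes passed, and no call among the 9 genes or in the lists changed. Frat1 did not pass without any 1 CR-CD array, nor with the methods' t-test once its p was adjusted over all genes (log2 difference 1.04, adjusted p = 0.312). At the study's own threshold, a 1.5-fold difference with no adjustment, that test called 5 of the 9 genes, Frat1 included, and 346 of all genes. Leaving out 1 array at a time gave log2 differences of 0.85 to 1.17 for Frat1, 1.11 to 1.24 for Ctnnb1, 1.70 to 1.79 for Tcf7l1, 1.94 to 2.04 for Tcf7l2, -1.47 to -1.35 for Apc2, -0.28 to -0.17 for Apc and -0.14 to 0.028 for Axin1, the only one of these that changed sign (0.023 with replicate 3 of CR-CD left out, 0.028 with replicate 3 of CD-CD left out). The number of the 9 genes that passed ran from 4 to 5, and that of all genes from 290 to 355. Leaving out probe sets with the longer number format removes the only probe set of all 5 genes that passed. Then 0 of the 4 genes left, 0 of 53 pathway genes and 0 of 21878 genes passed. Of the 329 genes that passed, 294 have no probe set left in this setting. The other 35 were still tested, 21 of them through a dimmer probe set and 14 in the usual format. The cause of their loss was not tested. In it Cdh1, read from its dimmer probe set, had a log2 difference of -0.0098. With the mean of the probe sets, 7 pathway genes passed in place of 5, Skp1 and Ppp2r5b being added. No gene here had a second probe set and Gsk3a had none of its own, so the comparisons of other probe sets of the 9 genes and of Gsk3b with Gsk3a were not run.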
